A study of Mus musculus with 79 samples.

Results

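The genes described here are Myc and the genes that make and assemble ribosomes in the nucleolus, followed across T helper 17 (Th17) cells of mice. A list of 38 gene names set the membership. The table spells gene symbols in capitals, such as MYC, NCL, NPM1 and FBL, and they are written here in the mouse style. Under the listed names, 37 of the 38 were rows of the deposited table of 20465 genes. Utp4 was not among its row names, and Cirh1a, a synonym of Utp4 in RefSeq, was not counted as a member. All 37 passed the filter on low values that left 10672 genes for testing. Beside Myc itself there are 4 genes of RNA polymerase I transcription, Polr1a, Polr1b, Rrn3 and Tcof1, and 6 genes of small nucleolar ribonucleoproteins (snoRNPs), Fbl, Nop56, Nop58, Dkc1, Gar1 and Nolc1. The small subunit processome and 40S assembly are represented by 11 genes, Nop14, Nol6, Wdr43, Wdr75, Rrp9, Utp14a, Utp20, Heatr1, Rrp12, Bysl and Tsr1. The 9 genes of 60S assembly are Pes1, Bop1, Wdr12, Ppan, Rrs1, Nop2, Nop16, Nip7 and Rrp1b, and the 6 nucleolar proteins of several roles are Ncl, Npm1, Ddx21, Gnl3, Mybbp1a and Lyar.

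Th17 cells were differentiated in culture as pathogenic cells (Th17p) with IL1b, IL6 and IL23, or as non-pathogenic cells (Th17n) with TGFb and IL6. Each type received EGCG, a green tea catechin, at 20 µM, its solvent DMSO, the steroid DHEA at 50 µM, or its solvent methanol. RNA came from unsorted cells (Total) and from cells sorted by dilution of the dye CFSE for exactly 1 division (Div.1), and the labels describe 5 mice per condition without saying whether groups share mice. Of 79 libraries in the 16 groups, 78 were used, with 4 in the DMSO Div.1 group of each cell type and 5 in every other group. 1 library, from well A4, entered no group, since it carries the label Th17n DMSO Div.1 while the other wells of row A are labelled Th17p. Replicates in the DMSO and EGCG groups lie in well columns 1 to 5 and those in the methanol and DHEA groups in columns 6 to 10, so solvent and well column cannot be told apart.

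MYC is a transcription factor that pairs with MAX on E-box sequences and drives genes for growth, and in activated T cells it is required for the metabolic and biosynthetic switch that precedes division. RNA polymerase I transcribes the long ribosomal RNA precursor in the nucleolus, snoRNPs guide its chemical modification, and the small subunit processome and the 60S factors cut, fold and pack it with ribosomal proteins. Proteins of the MXD family, MXI1 and MNT also pair with MAX and repress the same E-boxes, so they oppose MYC.

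Values are in TPM (transcripts scaled to a fixed library total), which adjusts for transcript length and library, and the columns summed to between 880077 and 895017. Only TPM were given, so read depth was unknown and precision rests on the spread between libraries. Between 9338 and 9845 genes per library reached 1 TPM. The labelled cell type was checked against its markers. Cd3e, Cd3d, Cd4, Il17a and Il17f were above 0 in all 78 libraries, while Lyz2, a myeloid marker, was at 0 in 73 libraries and Gzmk, a cytotoxic marker, in 75. Cd8a did not exceed 0.557 TPM. Other markers of such cells were present, with Cd8b1 at 3.41 to 26.9 TPM, Nkg7 and Klrd1 at up to 22.9 and 24.2 TPM, and Cst3, which myeloid cells express strongly, at 150.04 to 244 TPM. In bulk RNA of this kind, fewer cells of a type and less RNA per cell cannot be told apart. Every log2 change below is a difference of group means of log2(TPM + 1) with its standard error (SE), tested with limma and adjusted over all 10672 genes within a comparison, and a gene is called higher or lower at an adjusted p under 0.05.

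The members spanned a wide range of abundance. Npm1, a histone and ribosome chaperone of the nucleolus, had a mean of 4412 TPM over the 78 libraries. Ncl, which binds the ribosomal RNA precursor, followed at 844 TPM, Nop56 at 448 and Nop58, its partner in the box C/D snoRNP, at 356. Myc was number 5 in this order at 317 TPM. The lowest levels were those of Heatr1, at 19.5 TPM, Wdr12, at 10.9, and Utp20, at 10.2. The order by mean says nothing of differences between neighbours, several of which, such as Lyar at 225, Ppan at 224 and Nop16 at 224 TPM, lay close to each other.

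With DHEA the nucleolar genes were lower in both cell types and both sorts, while Myc mRNA was not. Of the 37 members, 31 were called lower in Th17p Total, where 26.8% of all genes tested were and 47.7% changed in either direction. In Th17p Div.1 29 were lower against 19.2% of all genes, in Th17n Total 35 against 25.3%, and in Th17n Div.1 30 against 14.6%. Between 1 and 2 members were called higher in each of these comparisons, where 20.9%, 18.1%, 20.8% and 22.1% of all genes were, in the same order. The median log2 change of the members was -0.30 in Th17p Total and -0.41 in Th17n Total, beside medians over all genes of -0.02 and -0.01. In Div.1 cells it was -0.21 for Th17p and -0.27 for Th17n, beside 0.00 and 0.05. In all 4 DHEA comparisons 33 of the 37 members lay below 0, and the share of all genes that did was not counted. Called lower in all 4 were 24 members. Of all genes at most 14.6%, the share in Th17n Div.1, can have been called lower in all 4. The 13 members not called lower in all 4 were Myc, Rrn3, Tcof1, all 6 snoRNP genes but Nolc1, Wdr75, Heatr1, Wdr12, Rrs1 and Npm1.

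Myc, in order of well column, was at 373, 392, 373, 383 and 416 TPM in Th17p Total cells with DHEA and at 294, 299, 307, 334 and 353 TPM with methanol. In Th17n Total cells it was at 378, 359.9, 366, 364 and 411 TPM with DHEA and at 319, 259, 279, 318 and 332 TPM with methanol. In both cell types every DHEA library of Total cells lay above every methanol library. The rise was 0.29 ± 0.07 (adjusted p = 0.000196) in Th17p and 0.32 ± 0.07 (adjusted p = 3.85e-05) in Th17n on the log2 scale. Among sorted cells Myc was at 398, 322, 405, 359 and 399 TPM in Th17n with DHEA against 353, 300.2, 308, 311 and 357 with methanol, ranges that overlapped, with a rise of 0.21 ± 0.07 (adjusted p = 0.0101). In Th17p Div.1 the values were 372, 342, 386, 323 and 421 against 319, 331, 362, 367 and 378 TPM, which also overlapped, and the change of 0.07 ± 0.07 (adjusted p = 0.466) was not called.

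**Figure D1:**
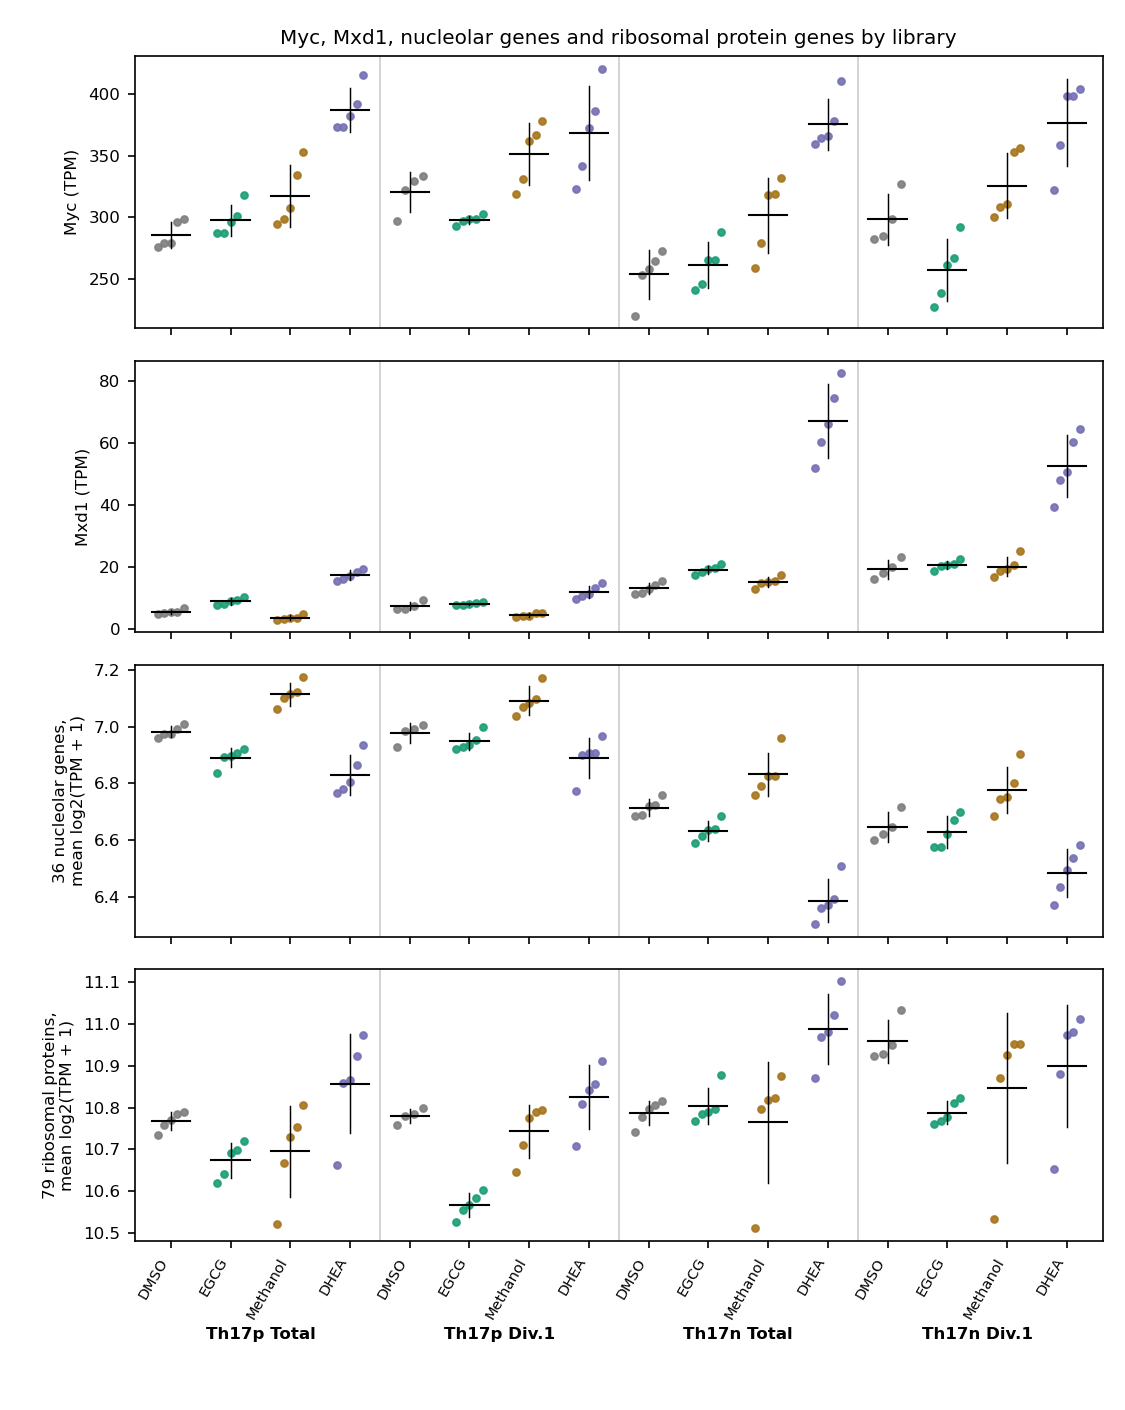
Myc and Mxd1 in TPM, and the mean of log2(TPM + 1) over the 36 members other than Myc and over 79 ribosomal protein genes, in each of the 78 libraries (points) of the 16 groups, with the group mean (horizontal line) and SD (vertical line); the y axes do not start at 0. With DHEA, Myc and Mxd1 lay above methanol in Total cells while the 36 nucleolar genes lay below it.

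Ncl fell with DHEA in all 4 comparisons. Its values were 894, 816, 850.4, 797 and 908 TPM in Th17p Total cells with DHEA and 1054, 1085, 1104, 1034 and 1091 with methanol. In Th17n Total cells they were 603, 617, 652, 606 and 696 TPM with DHEA and 829.6, 865, 865, 837 and 952 with methanol. The ranges of DHEA and methanol libraries did not overlap in either cell type, and the changes were -0.33 ± 0.04 (adjusted p = 3.56e-09) and -0.45 ± 0.04 (adjusted p = 1.83e-13). In Div.1 cells Ncl was at 938, 875, 937, 887 and 946 TPM in Th17p with DHEA against 1019, 1042, 1206, 1030.0 and 1039 with methanol. In Th17n Div.1 it was at 642, 679.8, 601, 610.2 and 741 against 748, 784, 804, 811 and 882 TPM. DHEA libraries lay below methanol libraries in both. The log2 changes were -0.22 ± 0.04 (adjusted p = 6.76e-05) and -0.30 ± 0.04 (adjusted p = 1.17e-07).

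Npm1 had 4810.2, 4315, 4351, 4250.1 and 4916 TPM in Th17p Total cells with DHEA and 5419, 5552, 5679, 5481 and 5461 with methanol. In Th17n Total cells it had 3434, 3295, 3439, 3323 and 3660.1 TPM with DHEA and 4299, 4295, 4273, 4023 and 4652 with methanol. DHEA libraries lay below methanol libraries in both. The log2 changes were -0.29 ± 0.05 and -0.33 ± 0.05, with adjusted p = 2.00e-07 and 7.86e-09. In Div.1 cells Npm1 had 4961, 4684, 4965, 4754 and 4901 TPM in Th17p with DHEA against 5109.5, 5164, 5438, 4939.6 and 5149.9 with methanol, and the change of -0.09 ± 0.05 (adjusted p = 0.123) was not called. In Th17n Div.1 the values were 3469.6, 3629, 3143, 3253 and 3995 against 3531, 3925, 3843, 3936 and 4349 TPM, a log2 change of -0.17 ± 0.05 (adjusted p = 0.00269).

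By role, in the order Th17p Total, Th17p Div.1, Th17n Total and Th17n Div.1, DHEA lowered 11, 11, 11 and 9 of the 11 small subunit genes, 7, 7, 9 and 8 of the 9 genes of 60S assembly, 6, 5, 6 and 6 of the 6 nucleolar proteins of several roles, 3, 4, 3 and 2 of the 4 RNA polymerase I genes and 4, 2, 6 and 5 of the 6 snoRNP genes. Bysl, which acts late in 40S maturation, had one of the 3 largest falls in Th17p, from 87.97 ± 4.76 TPM (SD, n = 5) to 60.3 ± 2.36 TPM (SD, n = 5) in Total cells, a log2 change of -0.54 ± 0.05 (adjusted p = 4.44e-13). In Th17p Div.1 cells it changed by -0.46 ± 0.05 (adjusted p = 2.65e-10). Wdr43, a processome subunit, changed by -0.51 ± 0.05 (adjusted p = 8.91e-15) in Th17p Total. Rrp12, known in yeast as an export and maturation factor of ribosomal precursors, was lower in all 4, with changes of -0.46 ± 0.06, -0.44 ± 0.06, -0.60 ± 0.06 and -0.48 ± 0.06 on the log2 scale. The ranges of DHEA and methanol libraries did not overlap for Bysl, Wdr43 and Rrp12 in the comparisons named. Tcof1, a cofactor of RNA polymerase I, changed by -0.95 ± 0.29 (adjusted p = 0.00705) in Th17p Div.1 with overlapping ranges, 12.2 to 39.03 against 33.95 to 55.4 TPM. Mybbp1a, a MYB-binding nucleolar protein, changed by -0.57 ± 0.05 in Th17n Total, and Polr1a, the largest subunit of RNA polymerase I, changed by -0.51 ± 0.06.

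**Figure D2:**
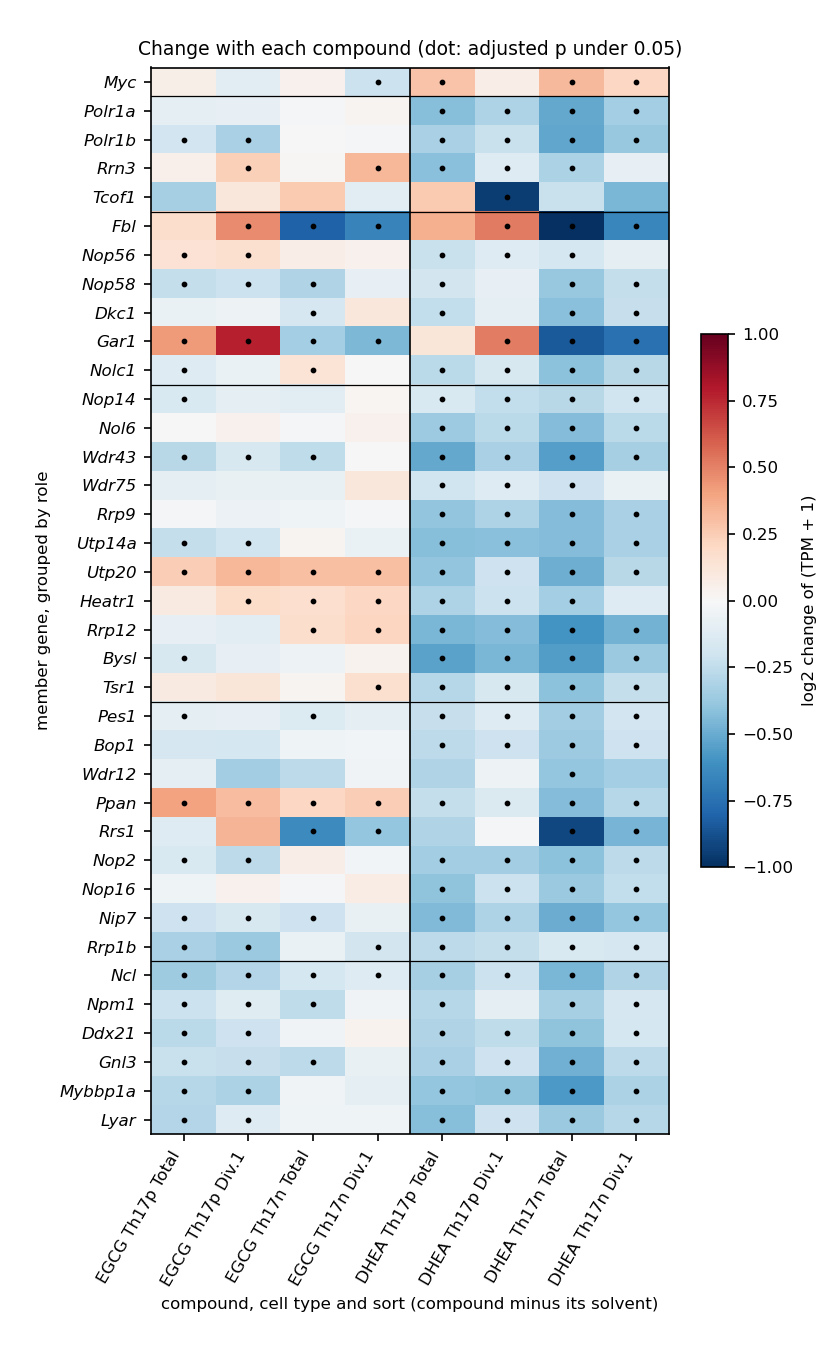
Log2 change of (TPM + 1) of the 37 members (rows, grouped by role with Myc on top) in the 8 comparisons of a compound with its solvent (columns), with a black dot where the adjusted p was under 0.05; the colour scale ends at 1 in each direction. The DHEA columns are blue for most rows, while the EGCG columns mix both directions. With DHEA 24 members were called lower in all 4 comparisons, where at most 14.6% of all genes can have been.

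The methanol and DMSO libraries differed for some of these genes, so the DHEA groups were also set beside both solvents. The mean of log2(TPM + 1) over the 36 members other than Myc ranged over 6.77 to 6.94 in the Th17p Total libraries with DHEA, 7.06 to 7.17 with methanol and 6.96 to 7.01 with DMSO. In Th17n Total the ranges were 6.30 to 6.51, 6.76 to 6.96 and 6.68 to 6.76, in the same order. In Th17n Div.1 they were 6.37 to 6.58, 6.69 to 6.90 and 6.60 to 6.72. DHEA libraries lay below both solvents in these 3 settings, by a narrow margin to DMSO in 2 of them. In Th17p Div.1 the DHEA range of 6.77 to 6.97 lay below that of methanol, 7.04 to 7.17, and overlapped that of DMSO, 6.93 to 7.01. Between the solvents, 12 members were higher with methanol in Th17p Total, 5 in Th17p Div.1, 7 in Th17n Total and 7 in Th17n Div.1, and none was lower. Over all genes 5.1%, 2.63%, 4.41% and 4.89% were higher. Leaving out 1 library gave between 4 and 13 called members in Th17p Total, 1 and 4 in Th17p Div.1, 3 and 8 in Th17n Total and 1 and 10 in Th17n Div.1. The fewest came without methanol replicate 8 in Th17p Div.1 and without methanol replicate 10 in the other 3. Ppan was 0.22 ± 0.06 and Wdr43 0.22 ± 0.05 higher with methanol in Th17p Total, Tcof1 0.98 ± 0.31 and Lyar 0.23 ± 0.04 in Th17p Div.1, all on the log2 scale. In Th17n Total Myc was 0.25 ± 0.07 and Mybbp1a 0.22 ± 0.05 higher, and in Th17n Div.1 Rrp1b 0.26 ± 0.06 and Rrp12 0.22 ± 0.06. The Tcof1 call was lost without any one of 7 libraries, Th17p DMSO Div.1 replicates 1, 2 or 5 or Th17p Methanol Div.1 replicates 6, 7, 8 or 10, with changes between 0.77 and 1.05 and adjusted p from 0.0624 to 0.224. The Ppan call was lost without either of 2 libraries, Th17p Methanol Total replicate 10 or Th17p DMSO Total replicate 4, with changes at 0.19 and adjusted p from 0.0525 to 0.0547. The Myc call was lost without either of 2 libraries, Th17n DMSO Total replicate 2 or Th17n Methanol Total replicate 10, with changes between 0.20 and 0.21 and adjusted p from 0.0626 to 0.0812. The Rrp1b call was lost without Th17n Methanol Div.1 replicate 10, at 0.21 (adjusted p = 0.0583). The Rrp12 call was lost without any one of 3 libraries, Th17n DMSO Div.1 replicate 4 or Th17n Methanol Div.1 replicates 8 or 10, with changes between 0.16 and 0.21 and adjusted p from 0.0507 to 0.161.

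Promoter sequences are shown for 3 members to set the E-box beside the changes with DHEA, since MYC and MAX bind CACGTG. They are the 250 bases before the annotated start of each gene, from RefSeq on GRCm38.p6, with CACGTG in capitals. This motif reads the same on both strands. Rrn3 encodes the factor that brings RNA polymerase I to the ribosomal DNA, Nop2 a 60S factor that methylates ribosomal RNA, and Ncl is the most abundant member after Npm1.
Rrn3, chr16:13780449-13780698, plus strand: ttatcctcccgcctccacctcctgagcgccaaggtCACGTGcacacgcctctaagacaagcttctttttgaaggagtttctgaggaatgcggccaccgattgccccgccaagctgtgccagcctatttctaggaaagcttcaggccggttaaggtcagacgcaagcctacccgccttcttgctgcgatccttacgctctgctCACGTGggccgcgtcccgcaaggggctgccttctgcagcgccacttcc
Nop2, chr6:125131633-125131882, plus strand: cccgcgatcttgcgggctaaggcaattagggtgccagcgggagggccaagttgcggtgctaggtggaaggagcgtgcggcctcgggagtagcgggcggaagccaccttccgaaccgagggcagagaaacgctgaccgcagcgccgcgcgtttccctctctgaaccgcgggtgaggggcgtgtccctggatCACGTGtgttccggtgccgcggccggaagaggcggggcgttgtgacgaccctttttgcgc
Ncl, chr1:86359456-86359705, minus strand: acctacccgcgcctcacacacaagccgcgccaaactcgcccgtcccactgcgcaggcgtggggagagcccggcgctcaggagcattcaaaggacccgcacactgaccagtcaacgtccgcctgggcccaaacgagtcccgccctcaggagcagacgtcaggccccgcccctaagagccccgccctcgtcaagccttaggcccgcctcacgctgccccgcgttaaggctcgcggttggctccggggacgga
The Rrn3 stretch holds the motif at 2 places, which begin at -215 and -48 from the start, the Nop2 stretch holds it at -60, and these letters are not in the Ncl stretch. All 3 genes were lower with DHEA in Th17n Total, with changes of -0.32 ± 0.05 for Rrn3, -0.41 ± 0.05 for Nop2 and -0.45 ± 0.04 for Ncl on the log2 scale. RefSeq promoters were matched for 29 of the 37 members, over a window of 250 bases before to 50 after the start, and 7 of the 29, or 24.1%, held the motif. The others with a match were Utp20, Pes1, Mybbp1a, Tsr1 and Wdr43, each after the start. Of 27025 genes with a listed promoter 8.09% held it in at least 1 window, and of the 8256 tested genes among them 12.3% did. A match is a description of the letters and not evidence of binding.

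Among 8 tested genes of the MYC network around MAX, the largest change with DHEA was that of Mxd1, which encodes a MAX partner that represses MYC targets. This gene was singled out after its values were seen. Mxd1 was at 82.7, 66.1, 60.5, 51.96 and 74.5 TPM in Th17n Total cells with DHEA and at 15.57, 13.1, 14.8, 17.6 and 15.3 with methanol. In Th17p Total cells it was at 15.4, 17.2, 16.3, 18.5 and 19.5 TPM with DHEA and at 3.69, 3.02, 3.37, 3.48 and 4.94 with methanol. No DHEA library overlapped a methanol library in either cell type. The rises were 2.05 ± 0.11 and 1.98 ± 0.11 on the log2 scale, with adjusted p = 4.59e-24 and 1.39e-23. In Div.1 cells Mxd1 rose by 1.21 ± 0.11 in Th17p and 1.33 ± 0.11 in Th17n. In Th17p the methanol means of Mxd1, 3.70 TPM in Total and 4.58 in Div.1, lay below the DMSO means of 5.54 and 7.44. In Th17p Div.1 Mxd1 was at 9.78 to 14.8 TPM with DHEA, 6.35 to 9.33 with DMSO and 3.97 to 5.23 with methanol. The response in Div.1 minus that in Total cells was -0.77 ± 0.16 in Th17p (adjusted p = 0.000754) and -0.72 ± 0.16 in Th17n (adjusted p = 0.00348). Max itself rose in Total cells, by 0.58 ± 0.08 in Th17n and 0.23 ± 0.08 in Th17p. Mxi1, another MAX partner, rose in Th17p Total by 0.52 ± 0.13 and in Th17p Div.1 by 0.65 ± 0.13, and Mxd3 rose in Th17p Total by 0.89 ± 0.18. In Th17n neither was called, with Mxi1 at 0.19 ± 0.13 (adjusted p = 0.223) in Total and 0.26 ± 0.13 (adjusted p = 0.117) in Div.1. Mnt was not called with DHEA in any of the 4, and Mlxip, which pairs with MLX, rose in Th17p Total by 0.44 ± 0.13 and was lower in Th17n Total, at -0.34 ± 0.13. With EGCG, Mxd1 rose in Total cells by 0.60 ± 0.11 in Th17p and 0.52 ± 0.11 in Th17n, and its changes in Div.1 of 0.12 ± 0.12 and 0.10 ± 0.12 were not called. Mxd3 was lower with EGCG in Th17p Div.1, at -1.22 ± 0.19 (adjusted p = 2.57e-07). Mxi1 rose there by 0.34 ± 0.14, and Mnt rose in Th17n Total by 0.28 ± 0.11. Mga rose in Th17n Div.1, by 0.51 ± 0.10 with EGCG and 0.28 ± 0.09 with DHEA, and was not called in the other compound comparisons.

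Assembly factors outside the 38 names were also mostly lower with DHEA, while other RNA polymerase I genes were nearer the background. In the order Th17p Total, Th17p Div.1, Th17n Total and Th17n Div.1, 32, 28, 31 and 25 of 37 other 40S factors were lower and 0, 2, 0 and 1 higher. Of 41 other 60S factors 33, 26, 32 and 26 were lower and 1, 2, 2 and 3 higher. Pno1, a late 40S factor, changed by -0.64 in Th17n Total, Dcaf13, a processome subunit, by -0.75 in Th17p Total, and Eif6, which keeps 60S subunits from joining early, by -0.54 in Th17n Total on the log2 scale. Of 12 other snoRNP genes 9, 5, 9 and 9 were lower, with Nhp2, a box H/ACA core protein, at -0.47 in Th17p Total and -0.46 in Th17n Total. Of 12 other RNA polymerase I genes 5, 3, 3 and 2 were lower, beside 26.8%, 19.2%, 25.3% and 14.6% of all genes. Among 27 MYC targets outside the nucleolus 22, 20, 25 and 21 were lower. Apex1, a DNA repair endonuclease, changed by -0.72 in Th17p Total and -0.70 in Th17n Total, and Hspd1, a mitochondrial chaperonin, by -0.63 and -0.65.

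Genes of the ribosomal proteins themselves were more often higher than lower with DHEA. Of 79 tested, 42, 23, 54 and 18 were higher with DHEA in the same order and 2, 5, 2 and 2 lower, with median log2 changes of 0.17, 0.07, 0.25 and 0.06. Of all genes 20.9%, 18.1%, 20.8% and 22.1% were higher, so the count in Th17n Div.1 lies near that background. Rps4x changed by 0.39 in Th17p Total and 0.38 in Th17n Total, and Rpl13a by 0.49 in Th17n Total. Rps27a, whose product is a ubiquitin fusion, was lower in all 4, with -0.64, -0.70, -0.56 and -0.49. The library of well column 10 had the lowest mean of log2(TPM + 1) over these 79 genes in every methanol and DHEA group. Without well columns 1 and 10, 58, 28, 64 and 20 ribosomal protein genes were higher and 2, 5, 3 and 6 lower. With TPM rescaled by the median ratio 45, 13, 55 and 5 were higher and 1, 3, 2 and 3 lower. Of all 10672 genes 2592, 2026, 2603 and 2032 were then higher. Neither Div.1 count of higher ribosomal protein genes exceeded that share of all genes, while both Total counts did. Ribosomal protein genes have many processed pseudogenes and near copies, and how reads were shared among them was not stated.

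Markers of several cell types moved with DHEA. The summed TPM of 6 T helper markers, Il17a and Il17f among them, was 1418 to 2122 in Th17n Total with DHEA and 4909.8 to 6293 with methanol, and 941 to 1116 and 1885 to 2526 in Th17p Total. Il17f had the widest range of the 6 over the 78 libraries, 96.7 to 8147 TPM. Cd3e, Cd3d and Cd4 ranged over 89.3 to 174, 233 to 592 and 67.9 to 186 TPM, so a change of the sum need not be one of these genes. Some markers of other cell types were at higher levels. The summed TPM of 8 CD8 T and NK cell markers, of which 3 passed the filter, was 31.3 to 45.8 in Th17n Total cells with DHEA and 17.8 to 25.9 with methanol, and 22.6 to 31.3 and 14.9 to 23.3 in Th17p Total. In Th17p Total it was 19.4 to 31.9 with EGCG and 9.61 to 15.01 with DMSO. Cd8b1, Nkg7 and Klrd1 made up most of these sums, and Ncr1, which marks NK cells, was at 0 in 74 of 78 libraries. The T helper sum was 979 to 1197 with EGCG and 2462 to 3322 with DMSO in Th17p Total. In Th17n Div.1 it went the other way, with 7970 to 9103 and 4013 to 4898, and in Th17n Total the EGCG and DMSO ranges overlapped. The sum of 6 B cell markers was 2.28 to 5.61 TPM with DHEA and 0.996 to 1.85 with methanol in Th17n Total, and that of 6 myeloid markers, nearly all of it Cst3, 183 to 193 and 181 to 203. The part of such cells in the results was not tested.

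EGCG moved the members in both directions. Lower calls outnumbered higher ones except in Th17n Div.1, where they were equal. The member median lay below that of all genes in each comparison. In Th17p Total 4 members were called higher and 17 lower, where 30.1% and 14.9% of all genes were. In Th17p Div.1 7 were higher and 13 lower, beside 33.7% and 11.9% of all genes. In Th17n Total the counts were 5 and 11, beside 21.7% and 13.5%, and in Th17n Div.1 6 and 6, beside 28.1% and 6.77%. When well A4 was counted with Th17n DMSO Div.1, 8 of the 12 members called in Th17n Div.1 stayed called. The member medians in that order were -0.13, -0.08, -0.04 and -0.02, beside 0.09, 0.12, 0.05 and 0.11 over all genes. These counts depended on scaling. Rescaling by the median ratio moved the median of all genes by -0.10 in Th17p Div.1 and -0.11 in Th17n Div.1 on the log2 scale. It changed the splits to 3 higher and 24 lower in Th17p Total and 4 and 25 in Th17p Div.1. In Th17n they became 2 and 13 in Total and 2 and 19 in Div.1. Among all 10672 genes, lower calls went from 1586, 1270, 1441 and 723 to 2256, 2241, 1912 and 1671 in that order. Higher calls went from 3208, 3601, 2319 and 2999 to 2506, 2430, 1908 and 1642, so the background shifted toward lower as well.

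Ncl was the member called lower with EGCG in all 4 comparisons. In Th17p Total it was at 869, 771, 801, 801 and 797 TPM with EGCG and at 1064, 1015, 1026, 1015 and 1038 with DMSO, and no EGCG library reached the DMSO range. In Th17n Total it was at 791, 715, 662, 707 and 711 TPM with EGCG, again below the 814, 795, 801, 802 and 839 TPM with DMSO. The changes were -0.35 ± 0.04 (adjusted p = 7.03e-10) in Th17p and -0.18 ± 0.04 (adjusted p = 0.00121) in Th17n. In Div.1 cells Ncl was at 889.7, 804, 809, 803 and 819 TPM with EGCG and 1032, 1007, 983 and 1010.2 with DMSO in Th17p, a change of -0.29 ± 0.05 (adjusted p = 5.86e-07). In Th17n Div.1 the values were 691, 663, 699, 677 and 698 TPM with EGCG and 744, 740.1, 775 and 738 with DMSO, which did not overlap, with a change of -0.13 ± 0.05 (adjusted p = 0.0299). This last call was lost without any one of 3 libraries, Th17n DMSO Div.1 replicate 3 or Th17n EGCG Div.1 replicates 2 or 4, with changes between -0.12 and -0.11 and adjusted p from 0.0522 to 0.0955.

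Npm1 was at 4939.7, 4529.7, 4706, 4471 and 4311 TPM with EGCG in Th17p Total and at 5444, 5391, 5244, 5439 and 5117 with DMSO. In Th17n Total it was at 3981, 3837, 3366, 3677 and 3756 TPM with EGCG and at 4537, 4536, 4407, 4449 and 4203 with DMSO. It changed by -0.22 ± 0.05 (adjusted p = 6.53e-05) and -0.25 ± 0.05 (adjusted p = 1.00e-05), with EGCG libraries all below the DMSO range in Th17p and all below it in Th17n. In Th17p Div.1 the values were 4938, 4494, 4606, 4666 and 4530.2 TPM with EGCG and 5377, 4947, 5008 and 4899 with DMSO, which overlapped, a change of -0.12 ± 0.05 (adjusted p = 0.0321). This call was lost without any one of 4 libraries, Th17p DMSO Div.1 replicate 1 or Th17p EGCG Div.1 replicates 2, 3 or 5, with changes between -0.12 and -0.09 and adjusted p from 0.0529 to 0.152. In Th17n Div.1 they were 3829.7, 3777, 3894, 3756 and 3557 TPM with EGCG and 3702, 3857, 3999 and 3861 with DMSO, and the change of -0.03 ± 0.05 (adjusted p = 0.621) was not called. The 6 nucleolar proteins of several roles, among them Gnl3, which shuttles between nucleolus and nucleoplasm, Ddx21, an RNA helicase, and Lyar, were all called lower in both Th17p sorts, and 3 and 1 of them in Th17n Total and Div.1. Lyar changed by -0.29 ± 0.04 (adjusted p = 5.00e-09) in Th17p Total.

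Myc with EGCG was at 296, 287, 287, 301 and 318 TPM in Th17p Total against 279, 276, 296, 279 and 299 with DMSO. In Th17n Total it was at 288, 240.4, 265, 246 and 265 against 258, 219.9, 253, 265 and 272 TPM. EGCG and DMSO libraries overlapped in both, and the changes of 0.06 ± 0.07 (adjusted p = 0.502) and 0.04 ± 0.07 (adjusted p = 0.663) were not called. In Th17p Div.1 Myc was at 297, 292, 298, 298 and 302 against 333, 322, 297 and 329.5 TPM, and the change of -0.11 ± 0.07 (adjusted p = 0.223) was not called either. In Th17n Div.1 the values were 267, 238, 227, 261 and 292 against 327, 282, 284 and 299 TPM, with a change of -0.22 ± 0.07 (adjusted p = 0.0122) and an overlap of 1 EGCG library with the DMSO range. This call was lost without either of 2 libraries, Th17n DMSO Div.1 replicate 1 or Th17n EGCG Div.1 replicate 3, with changes at -0.17 and adjusted p from 0.0603 to 0.0788.

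Ppan and Utp20 rose with EGCG in all 4 comparisons. Ppan, a 60S factor, went from 221 ± 13.5 TPM (SD, n = 5) to 292 ± 7.69 TPM (SD, n = 5) in Th17p Total, a log2 change of 0.40 ± 0.06 (adjusted p = 5.1e-08), and changed by 0.31 ± 0.06, 0.21 ± 0.06 and 0.24 ± 0.06 in the other 3. Utp20, a large scaffold protein of the processome, changed by 0.24 ± 0.06, 0.33 ± 0.07, 0.30 ± 0.06 and 0.30 ± 0.07, with EGCG libraries above DMSO libraries in all 4. Its level was low, 7.75 ± 0.324 TPM (SD, n = 5) in Th17n Total with DMSO, so the log2(TPM + 1) scale understates its change. Rrn3 rose in both Div.1 comparisons, by 0.24 ± 0.05 in Th17p and 0.33 ± 0.05 (adjusted p = 2.84e-07) in Th17n. Rrp12 rose in Th17n Total by 0.18 ± 0.06 (adjusted p = 0.0179). The Rrp12 call was lost without either of 2 libraries, Th17n EGCG Total replicate 4 or Th17n DMSO Total replicate 4, with changes at 0.15 and adjusted p from 0.0661 to 0.0682. Among the largest falls in Th17p, Rrp1b, which regulates ribosomal RNA maturation and transcription, changed by -0.33 ± 0.06 in Total and -0.37 ± 0.06 in Div.1. Polr1b, a core subunit of RNA polymerase I, changed by -0.32 ± 0.06 and Mybbp1a by -0.32 ± 0.06 in Th17p Div.1.

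In the wider pathway, ribosomal protein genes were more often lower than higher with EGCG in 3 of 4 comparisons. In the order Th17p Total, Th17p Div.1, Th17n Total and Th17n Div.1, 38, 49, 9 and 42 of 79 were lower and 10, 6, 15 and 1 higher, beside 14.9%, 11.9%, 13.5% and 6.77% of all genes lower, with medians of -0.15, -0.27, 0.01 and -0.16. The median in Th17n Total was below 0 after rescaling, at -0.04. Rps27l, a p53-induced relative of Rps27, changed by 0.80 in Th17p Total, 0.94 in Th17p Div.1 and 0.70 in Th17n Div.1. Of 10 genes in the p53 list, which includes targets of p53 and Mdm2, 8, 8, 7 and 8 were higher and 0, 1, 1 and 1 lower. Of all genes 30.1%, 33.7%, 21.7% and 28.1% were higher. With DHEA 4, 5, 4 and 4 of the 10 were higher and 0, 1, 0 and 1 lower, beside 20.9%, 18.1%, 20.8% and 22.1% of all genes higher. With EGCG Cdkn1a, a cell cycle inhibitor, changed by 2.95, 3.11, 3.45 and 3.43. Of the other 40S factors 9, 8, 8 and 5 of 37 were lower and 2, 8, 4 and 6 higher, and of the other 60S factors 16, 14, 14 and 6 of 41 were lower and 4, 10, 5 and 9 higher. These splits shifted toward lower with scaling. After rescaling 22, 18, 12 and 16 of the other 40S factors were lower and 2, 3, 3 and 0 higher. Of the other 60S factors 23, 23, 17 and 19 were then lower and 3, 3, 3 and 2 higher. The background moved too. Of all 10672 genes 2256, 2241, 1912 and 1671 were lower after rescaling, beside 1586, 1270, 1441 and 723 before it. Sbds, which releases EIF6 from the 60S subunit, rose by 0.59 in Th17p Total and 0.38 in Th17n Total. Of the MYC targets outside the nucleolus 14, 9, 11 and 4 of 27 were lower and 2, 3, 1 and 2 higher, and 22, 19, 13 and 17 were lower after rescaling, with Impdh2, of guanine nucleotide synthesis, at -0.67 in Th17p Total. Of the other snoRNP genes 4, 2, 3 and 1 of 12 were lower and 0, 1, 0 and 3 higher, and of the other RNA polymerase I genes 1, 2, 2 and 1 of 12 were lower and 2, 3, 3 and 2 higher. Polr1c, a subunit shared by RNA polymerases I and III, rose by 0.55 in Th17p Total and 0.46 in Th17n Total.

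The responses to the compounds were compared directly, as the EGCG change minus the DHEA change, each against its own solvent. The response to EGCG was the higher one for 27 members in Th17n Total, where 18.1% of all genes were, and for 24 in Th17n Div.1, where 16.6% were. In Th17p it was the higher for 16 members in Total and 14 in Div.1, beside 24.7% and 23.8% of all genes. Myc was the member with a lower response to EGCG, with a difference of -0.28 ± 0.09 in Th17n Total, -0.42 ± 0.10 in Th17n Div.1 and -0.23 ± 0.09 in Th17p Total, with adjusted p = 0.019, 0.000536 and 0.04996. The Th17p Total call was lost without any one of 14 of the 20 libraries, and the Th17n Total call without 1, Th17n Methanol Total replicate 7 (adjusted p = 0.0658). In Th17p Div.1 no member had a called lower response, beside 7.65% of all genes. Utp20 differed by 0.79 ± 0.09 (adjusted p = 7.3e-11) in Th17n Total, and Rrp12 by 0.77 ± 0.09 (adjusted p = 5.48e-11). In Th17n Div.1 they differed by 0.57 ± 0.09 and 0.69 ± 0.09. Utp20 also differed in Th17p, by 0.64 ± 0.09 in Total and 0.54 ± 0.09 in Div.1. Tcof1 differed by 1.06 ± 0.42 (adjusted p = 0.0477) in Th17p Div.1, a call lost without any one of 11 of the 19 libraries. Ppan differed by 0.64 ± 0.08 (adjusted p = 4.65e-09) in Th17p Total. For Ncl the difference was -0.02 ± 0.06 in Th17p Total with a 95% interval from -0.15 to 0.11, and 0.28 ± 0.06 in Th17n Total (adjusted p = 0.000465). After rescaling the higher and lower calls numbered 12 and 3 in Th17p Total, 6 and 6 in Th17p Div.1, 23 and 1 in Th17n Total, and 15 and 1 in Th17n Div.1. Of all 10672 genes 1772, 1607, 1371 and 1145 were then higher in that order, and 1669, 1441, 1397 and 1100 lower. The 6 and 6 members in Th17p Div.1 lay near that background. Doses and solvents differ between the compounds, and solvent and well column cannot be told apart.

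**Figure D3:**
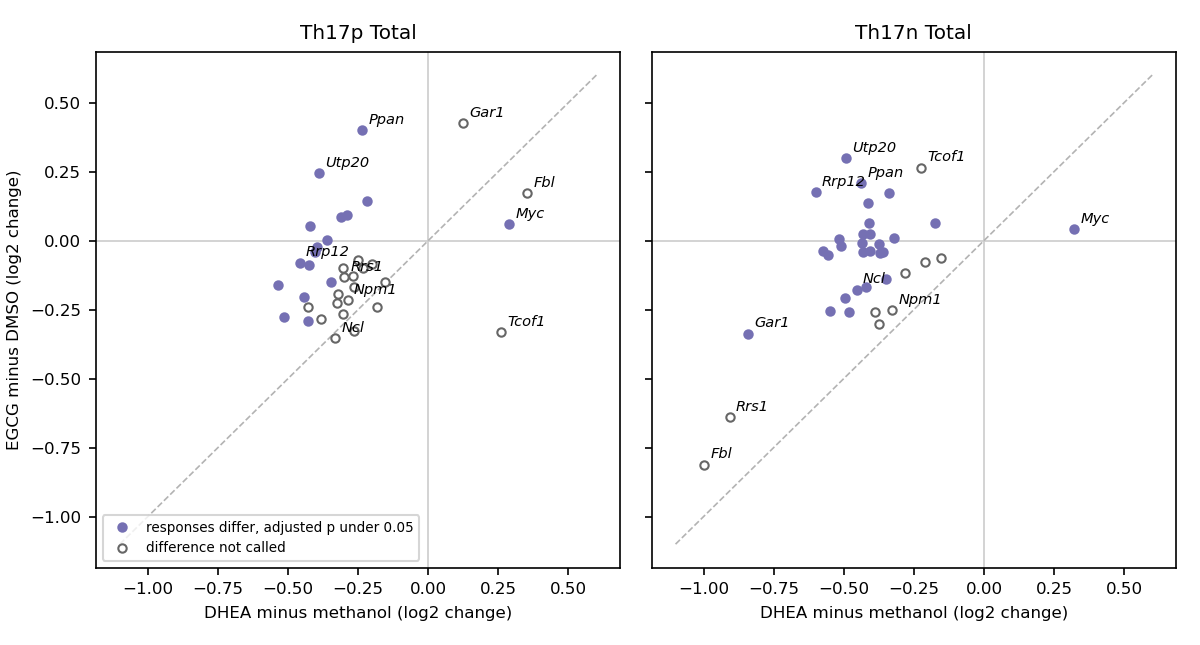
Log2 change of the 37 members with EGCG (y axis, against DMSO) and with DHEA (x axis, against methanol) in Total cells of Th17p (left) and Th17n (right); filled points are members whose responses differed at an adjusted p under 0.05, and the dashed line marks equal change. In Th17n most points lie above the line near an EGCG change of 0, and Myc lies to the right of 0 in both.

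Pathogenic and non-pathogenic cells were compared without compound, over both solvents. The members were mostly higher in Th17p. In Total cells 31 of 37 were called higher and 1 lower, and in Div.1 cells 31 and 1. Of all genes 30.9% and 34.9% were higher, and 26.5% and 25.7% lower, 57.4% and 60.6% in all. The member medians were 0.30 and 0.39, beside 0.02 and 0.04 over all genes. In both sorts 29 members were higher, where at most 30.9% of all genes can have been. Utp20 had the largest difference in both, 0.56 ± 0.04 (adjusted p = 2.21e-18) in Total and 0.59 ± 0.05 (adjusted p = 2.67e-18) in Div.1, and its means in DMSO were 11.6 ± 0.943 TPM (SD, n = 5) in Th17p and 7.75 ± 0.324 TPM (SD, n = 5) in Th17n Total. Lyar, a nucleolar zinc finger protein, was 0.47 ± 0.03 (adjusted p = 4.32e-24) higher in Total, and Polr1b 0.58 ± 0.04 (adjusted p = 1.6e-18) in Div.1. Ncl was at 1015 to 1064 TPM in Th17p Total and 795 to 839 TPM in Th17n Total with DMSO, which did not overlap, and differed by 0.33 ± 0.03 (adjusted p = 1.92e-14). Npm1 was at 5117 to 5444 and 4203 to 4537 TPM and differed by 0.31 ± 0.03 (adjusted p = 1.67e-13). For Myc mRNA the difference was small, 0.13 ± 0.05 (adjusted p = 0.0171) in Total cells, and in Div.1 the 0.11 ± 0.05 (adjusted p = 0.056) was not called. Nol6, a processome protein, was lower in Th17p Total, at -0.11 ± 0.05 (adjusted p = 0.0474), a call lost without any one of 11 of the 20 libraries. The Myc call was lost without either of 2 libraries, Th17n Methanol Total replicate 7 or Th17n DMSO Total replicate 2, with changes at 0.10 and adjusted p from 0.0596 to 0.0623. Fbl, the methyltransferase of box C/D snoRNPs, was lower in Th17p Div.1, at -0.53 ± 0.12 (adjusted p = 0.000145).

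**Figure D4:**
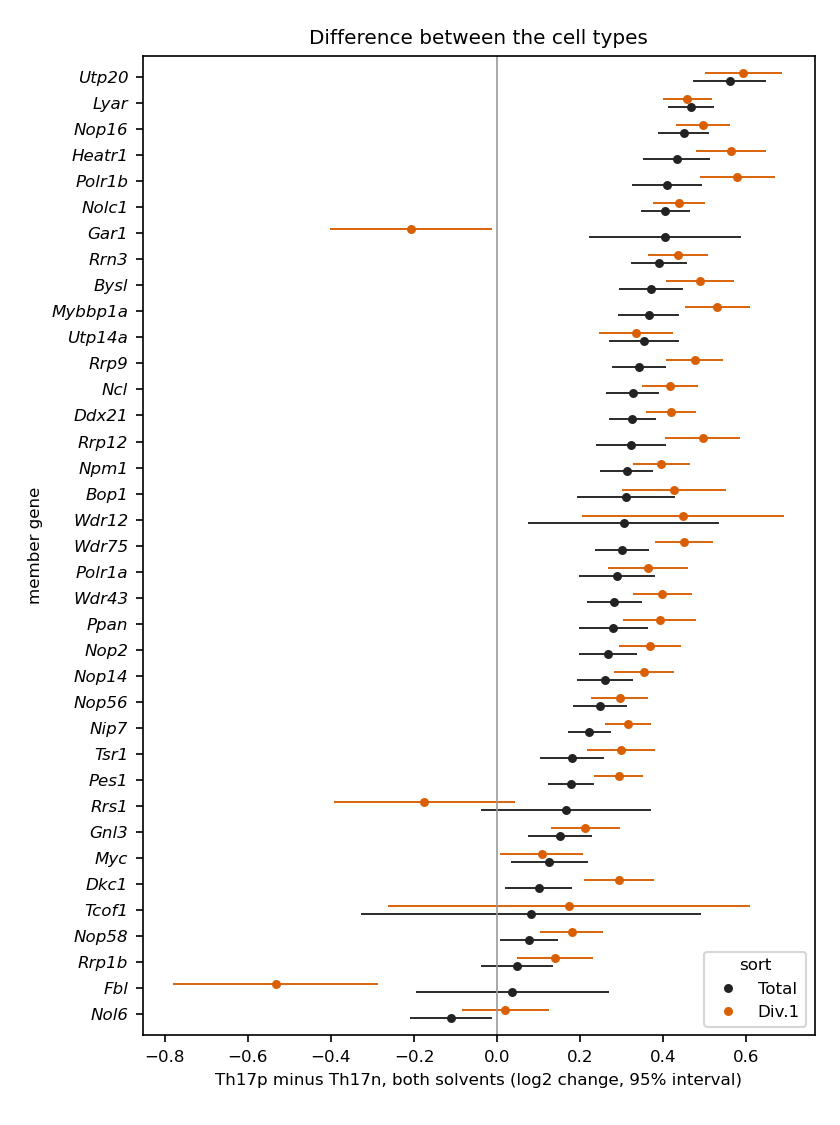
Difference between Th17p and Th17n over both solvents for each of the 37 members (log2 change with its 95% interval) in Total cells (black) and Div.1 cells (orange), ordered by the difference in Total cells. Nearly all points lie to the right of 0; Fbl, Gar1 and Rrs1 lie to the left of 0 in Div.1.

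Of the tested genes of the MXD family, Mxi1 and Mnt, which oppose MYC, Mxd1, Mxi1 and Mxd3 were lower in Th17p. Mnt was not called, at 0.15 ± 0.08 (adjusted p = 0.0762) in Total and -0.16 ± 0.08 (adjusted p = 0.0765) in Div.1. Mga, another tested gene of the MYC network, was not called either, at -0.02 ± 0.06 (adjusted p = 0.816) and 0.09 ± 0.07 (adjusted p = 0.246). Mxd1 was at 5.54 ± 0.766 TPM (SD, n = 5) in Th17p Total and 13.2 ± 1.76 TPM (SD, n = 5) in Th17n Total with DMSO, with no overlap, and differed by -1.46 ± 0.08 over both solvents (adjusted p = 6.74e-26). In Div.1 cells the difference was -1.60 ± 0.09. Mxi1 differed by -1.22 ± 0.09 in Total and -1.25 ± 0.10 in Div.1, and Mxd3 by -1.04 ± 0.13 and -0.60 ± 0.14, all lower in Th17p. Max was higher in Th17p, by 0.42 ± 0.06 in Total and 0.24 ± 0.06 in Div.1. Of the other 40S factors 29 and 31 of 37 were higher in Th17p Total and Div.1, of the other 60S factors 30 and 32 of 41, of the other snoRNP genes 11 and 11 of 12, and of the MYC targets outside the nucleolus 20 and 21 of 27. Pak1ip1, a 60S factor, went the other way, with -1.12 in Total and -0.96 in Div.1. Among the 79 ribosomal protein genes 24 were lower and 4 higher in Th17p Total, and 46 and 2 in Th17p Div.1, beside the 26.5% and 25.7% of all genes that were lower.

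Fbl and Gar1, core proteins of the box C/D and box H/ACA snoRNPs, differed between the cell types in their response to both compounds. Fbl was at 90.5, 94.6, 105, 120.0 and 121 TPM in Th17n Total cells with DHEA and at 198, 190.4, 179.6, 252 and 247 with methanol. With EGCG it was at 60.4, 90.9, 110.0, 115 and 109.5 TPM and with DMSO at 105, 156, 189.6, 193 and 216. All DHEA libraries lay below methanol, and the EGCG libraries overlapped DMSO through its lowest library, that of well column 1. The changes were -0.997 ± 0.16 (adjusted p = 6.16e-07) and -0.81 ± 0.16 (adjusted p = 6.97e-05). In Th17p Total Fbl was at 249.9, 245, 271, 284 and 294 TPM with DHEA and 179, 188, 210.3, 234 and 244 with methanol, and at 152, 185, 231, 225 and 219 with EGCG and 136, 173, 199, 194 and 193 with DMSO. Neither change, 0.35 ± 0.16 (adjusted p = 0.0702) and 0.17 ± 0.16 (adjusted p = 0.419), was called.

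In Div.1 cells Fbl was at 140.5, 136, 156, 177 and 161 TPM with DHEA and 229, 223, 244, 254 and 263 with methanol in Th17n. It was at 74.6, 102, 151, 145 and 169.7 with EGCG and 148, 198, 238 and 213 with DMSO. Both compounds lowered it, with -0.66 ± 0.16 and -0.67 ± 0.17 on the log2 scale. In Th17p Div.1 it was at 220.2, 213, 239.5, 262 and 274 TPM with DHEA and 134, 158, 179, 177 and 197 with methanol, and at 135, 189.6, 208, 203 and 212 with EGCG and 96.02, 143, 151 and 159 with DMSO. Both compounds raised it, by 0.52 ± 0.16 (adjusted p = 0.00918) and 0.47 ± 0.17 (adjusted p = 0.0231). The EGCG call was lost without any one of 3 libraries, Th17p DMSO Div.1 replicate 1 or Th17p EGCG Div.1 replicates 3 or 5, with changes between 0.31 and 0.43 and adjusted p from 0.0524 to 0.182. The response in Th17p minus that in Th17n was 0.99 ± 0.23 and 1.14 ± 0.25 for EGCG in Total and Div.1, and 1.35 ± 0.23 and 1.18 ± 0.23 for DHEA, with adjusted p = 0.00106, 0.000415, 1.5e-05 and 0.000157.

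Gar1 was at 15.03 to 16.9 TPM with DHEA against 25.8 to 32.05 with methanol in Th17n Total, and at 34.5 to 52.2 with EGCG against 22.6 to 26.6 with DMSO in Th17p Div.1. Neither pair of ranges overlapped, and the changes were -0.84 ± 0.13 (adjusted p = 1.39e-07) and 0.78 ± 0.14 (adjusted p = 3.2e-06). With DHEA Gar1 also changed by -0.75 ± 0.13 (adjusted p = 3.82e-06) in Th17n Div.1 and 0.51 ± 0.13 (adjusted p = 0.00109) in Th17p Div.1, and in Th17p Total its change of 0.12 ± 0.13 (adjusted p = 0.463) was not called. With EGCG it rose in Th17p Total by 0.43 ± 0.13 (adjusted p = 0.00531), and changed in Th17n by -0.34 ± 0.13 (adjusted p = 0.0366) in Total and -0.45 ± 0.14 (adjusted p = 0.00769) in Div.1. The Th17n Total call was lost without any one of 7 libraries, Th17n DMSO Total replicates 3, 4 or 5 or Th17n EGCG Total replicates 2, 3, 4 or 5, with changes between -0.34 and -0.27 and adjusted p from 0.0503 to 0.133. The Th17n Div.1 call was lost without Th17n DMSO Div.1 replicate 3, at -0.31 (adjusted p = 0.0942). Its Th17p minus Th17n differences were 0.76 ± 0.18, 1.23 ± 0.20, 0.97 ± 0.18 and 1.26 ± 0.18, in the order used for Fbl. Rrs1, a 60S factor that brings in the 5S particle, changed in Th17n Total by -0.91 ± 0.15 (adjusted p = 3.1e-07) with DHEA and -0.64 ± 0.15 (adjusted p = 0.00033) with EGCG. Without Th17n EGCG Total replicate 1 the latter was -0.40 (adjusted p = 0.0106). In Th17n Div.1 EGCG changed it by -0.38 ± 0.15 (adjusted p = 0.0441). That call was lost without any one of 4 libraries, Th17n EGCG Div.1 replicate 1 or Th17n DMSO Div.1 replicates 2, 3 or 4, with changes between -0.38 and -0.17 and adjusted p from 0.0798 to 0.393. In Th17p its changes with DHEA, -0.30 ± 0.15 in Total and -0.01 ± 0.15 in Div.1, were not called. These 3 genes varied more between libraries than most members, and among DMSO and EGCG libraries those of well column 1 were often the lowest. Without well columns 1 and 10 the Fbl differences were 0.99, 1.05, 1.37 and 1.17, and those of Gar1 1.01, 1.37, 0.95 and 1.16. All 8 stayed called.

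**Figure D5:**
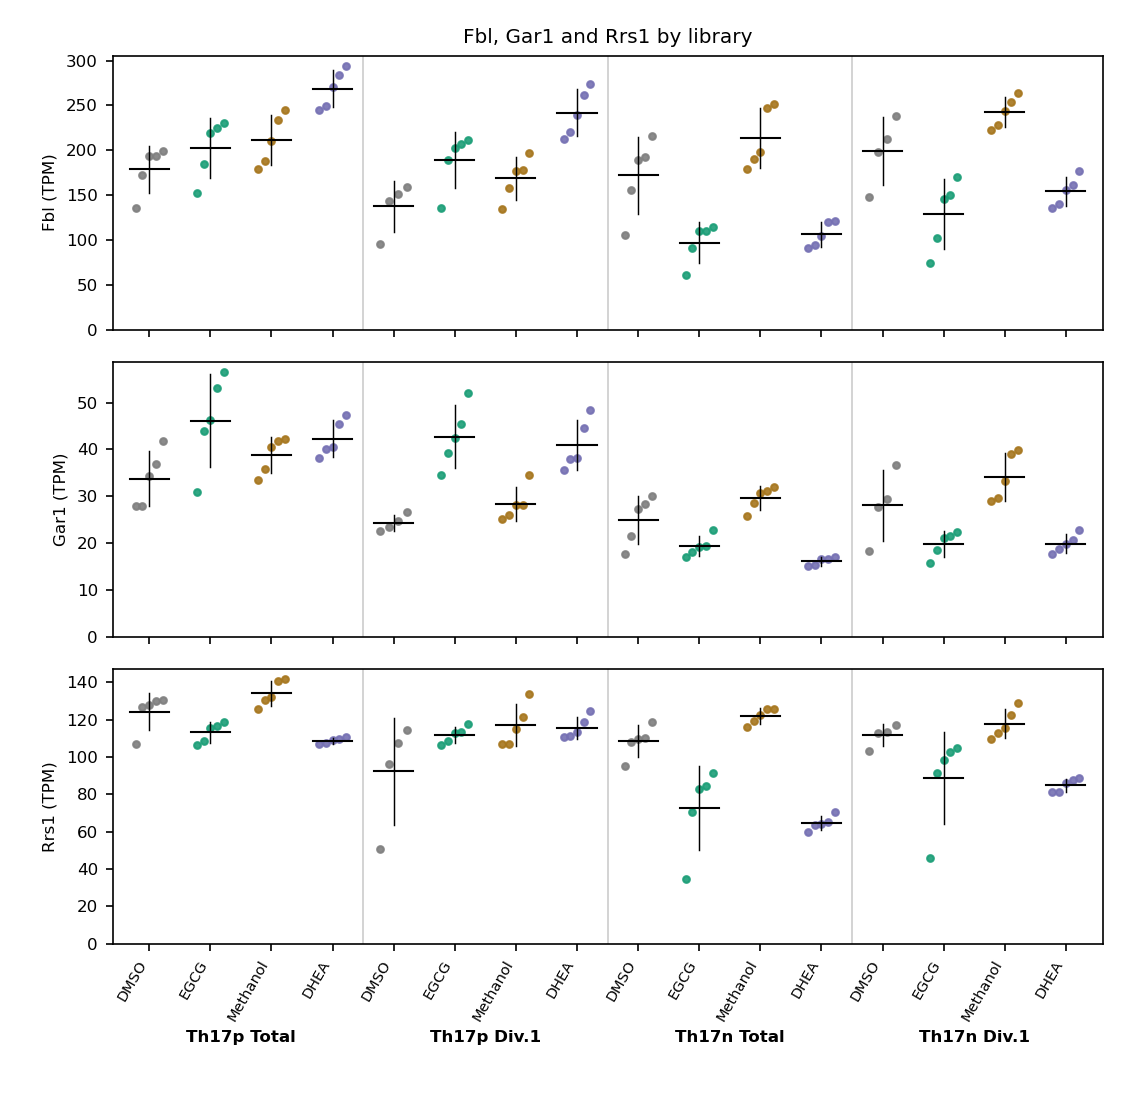
Fbl, Gar1 and Rrs1 in TPM in each of the 78 libraries (points) of the 16 groups, with the group mean (horizontal line) and SD (vertical line); y axes start at 0. The group means of both compounds lie below those of their solvent in Th17n for all 3 genes, and above them in Th17p for Fbl and Gar1.

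Over all members, the response to EGCG was higher in Th17p than in Th17n for 2 members and lower for 9 in Total, where 12.4% and 7.55% of all genes differed, 19.9% in all. In Div.1 the counts were 3 and 6, beside 9.12% and 8.38%. Rrp1b, at -0.26 ± 0.09 (adjusted p = 0.0209), and Utp14a, a processome helicase cofactor, at -0.26 ± 0.08 (adjusted p = 0.0178), had the most negative differences among called members in Total. The Rrp1b call was lost without either of 2 libraries, Th17n EGCG Total replicate 1 or Th17n DMSO Total replicate 3, with changes between -0.23 and -0.22 and adjusted p from 0.0583 to 0.063. Rrp12, at -0.33 ± 0.09 (adjusted p = 0.00512), and Polr1b, at -0.31 ± 0.09 (adjusted p = 0.00958), had them in Div.1. Tcof1, which was not called, had a difference of -0.60 in Total (adjusted p = 0.342). For DHEA 3 members differed in Total and 2 in Div.1, all higher in Th17p, beside 8.06% and 6.49% of all genes higher and 6.73% and 9.39% lower, and Fbl and Gar1 were among them in both. Without Th17n DHEA Total replicate 10, 6 members differed in Total.

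Cells sorted after exactly 1 division were set beside unsorted cells in the solvents. In Th17p 2 members were higher and 5 lower in Div.1, and in Th17n 1 and 16. Of all genes 8.63% and 10.8% were higher and lower in Th17p, and 5.8% and 16.1% in Th17n. Myc was higher in Div.1 in both, by 0.16 ± 0.05 (adjusted p = 0.0157) in Th17p and 0.17 ± 0.05 (adjusted p = 0.00487) in Th17n. With DMSO it was at 333, 322, 297 and 329.5 TPM in Th17p Div.1 and 327, 282, 284 and 299 TPM in Th17n Div.1, beside the Total values given above. Polr1b was also higher in Th17p, at 0.13 ± 0.04 (adjusted p = 0.0282). Gar1, at -0.44 ± 0.09 (adjusted p = 0.000431), and Fbl, at -0.36 ± 0.12 (adjusted p = 0.0266), were lower in Th17p Div.1. The Polr1b call was lost without any one of 5 libraries, Th17p DMSO Div.1 replicates 3 or 5, Th17p Methanol Total replicate 6, Th17p DMSO Total replicate 4 or Th17p Methanol Div.1 replicate 9, with changes between 0.11 and 0.12 and adjusted p from 0.0527 to 0.0807. The Fbl call was lost without either of 2 libraries, Th17p DMSO Div.1 replicate 1 or Th17p Methanol Div.1 replicate 6, with changes between -0.32 and -0.28 and adjusted p from 0.0629 to 0.109. In Th17n the largest falls among called members were those of Rrn3, at -0.21 ± 0.03 (adjusted p = 6.76e-06), and Dkc1, the pseudouridine synthase of box H/ACA snoRNPs, at -0.18 ± 0.04 (adjusted p = 0.000843). The Th17n count depended on scaling, with 6 members lower after rescaling. Leaving out 1 library of the fit gave between 12 and 18 called members. When well A4, which is outside the main fit, was added to Th17n DMSO Div.1, 6 were called. Of 79 ribosomal protein genes 20 were higher in Div.1 in Th17p and 43 in Th17n, with 2 and 1 lower and medians of 0.04 and 0.14.

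Few responses of members were called different between Div.1 and Total cells. For EGCG no member differed in Th17p by limma, with 3 at an unadjusted p under 0.05, where 2.57% of all genes differed and 1.22% had a lower response in Div.1. In Th17n 6 members had a higher response in Div.1 and none a lower one, beside 10.8% of all genes, led by Rrn3 at 0.32 ± 0.07 (adjusted p = 0.000761) and Dkc1 at 0.29 ± 0.08 (adjusted p = 0.0131). The Dkc1 call was lost without Th17n EGCG Total replicate 3, at 0.22 (adjusted p = 0.0546). When well A4 was counted with Th17n DMSO Div.1 none of these was called, and 2 members were called without Th17n EGCG Total replicate 3 and 3 without Th17n DMSO Div.1 replicate 1. For DHEA 4 were higher and 1 lower in Th17p, beside 5.6% and 4.31% of all genes, and 4 and 0 in Th17n, beside 5.12% and 1.68%. Rrn3 was among the higher ones in both, at 0.29 ± 0.07 (adjusted p = 0.00271) in Th17p and 0.24 ± 0.07 (adjusted p = 0.023) in Th17n. Lyar, at 0.22 ± 0.06 (adjusted p = 0.00526), was the next in Th17p, and Mybbp1a, at 0.26 ± 0.07 (adjusted p = 0.0243), led in Th17n. Tcof1 was the lower one in Th17p, at -1.21 ± 0.41 (adjusted p = 0.0477), a call lost without any one of 15 of the 20 libraries. The Th17n call of Rrn3 was lost without any one of 5 libraries, Th17n Methanol Div.1 replicates 6 or 7, Th17n DHEA Div.1 replicate 10, Th17n Methanol Total replicate 10 or Th17n DHEA Total replicate 9, with changes between 0.19 and 0.22 and adjusted p from 0.0522 to 0.0859. That of Mybbp1a was lost without any one of 6 libraries, Th17n Methanol Total replicate 10, Th17n DHEA Total replicates 6 or 9, Th17n Methanol Div.1 replicate 6 or Th17n DHEA Div.1 replicates 7 or 10, with changes between 0.21 and 0.24 and adjusted p from 0.057 to 0.0814. Leaving out 1 library gave between 2 and 5 called members in Th17p and between 1 and 8 in Th17n. After rescaling none of the Th17n members was called for DHEA. Called or not, 32 of 37 members in Th17p and 34 in Th17n had a DHEA difference above 0. The medians over all genes were above 0 as well, so more genes lay above 0 than below it. By limma 10 and 19 of the 37 had an unadjusted p under 0.05, and the share of all genes at that p was not counted, here or for EGCG. The member medians were 0.10 and 0.15, beside 0.03 and 0.06 over all genes, and 0.06 and 0.07 after rescaling, beside -0.01 and -0.01.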

How the data were processed

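Poly(A) RNA was sequenced from Th17 cells in 16 groups of cell type, compound or solvent, and sort, and samples were grouped by their labels. The deposited table holds TPM per gene symbol for 79 libraries. Per the submitters' processing notes Trimmomatic, kallisto and mm10 were used, with no versions, and how transcripts were summed to symbols is not given in the sources used here. Read depth is unknown from TPM, so no counting intervals are given and precision comes from the spread between libraries.

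The 28 comparisons were computed from log2(TPM + 1) in 1 limma fit of 16 group means (limma 3.58.1 in R 4.3.3, with an intensity trend, 62 residual degrees of freedom) over 78 libraries and 10672 genes with at least 1 TPM in at least 4 libraries. Adjustment followed Benjamini and Hochberg within each comparison, 2-sided, at 0.05. Comparisons of responses used difference-of-difference contrasts in that fit. Tables and plots used pandas 2.3.3, matplotlib 3.10.9 and numpy 2.4.6 under Python 3.11.15. The fit was checked on simulated data with known changes, and the outcome is not given here. The simulated noise was independent between libraries, so that check cannot cover deviations shared by a well column. Replicates are labelled as separate samples, so p-values measure the spread between these samples.

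The members and lists were chosen with earlier results of these data known. Myc, Ncl, Npm1 and Fbl are given in every library, and in each compound comparison the 3 called members with the largest rise and the 3 with the largest fall are named, with 2 each way in other comparisons. From the other lists of the pathway up to 3 called genes each way with the smallest p were eligible. Some items named by these rules are not reported here. Well A4 entered no group. Alternatives were a pseudocount of 0.1, no filter, median-ratio rescaling, the compared groups alone, a replicate block by well column, well A4 in its labelled group, each library left out in turn, and the libraries of well columns 1 and 10 left out.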

Additional observations from a re-analysis of the deposited data

Results flagged for a closer look

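In 112 groups of 4 or 5 libraries, tested for Myc, Ncl, Npm1, Fbl, Gar1, Rrs1 and Mxd1, 6 held a value far from the others by Dixon's test, and chance alone marks about 1 in 20 groups. Ncl was highest in Th17n DMSO Div.1 replicate 3 at 775 TPM, with the next library at 744. It was highest in Th17p EGCG Div.1 replicate 1 at 889.7 TPM, next to 819, and in Th17p Methanol Div.1 replicate 8 at 1206 TPM, next to 1042. Fbl was lowest in Th17p EGCG Div.1 replicate 1 at 135 TPM, next to 189.6. Rrs1 was lowest in Th17n EGCG Div.1 replicate 1 at 45.8 TPM, next to 91.6, and in Th17p DMSO Total replicate 1 at 106.7 TPM, next to 126.8.

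By the limma contrasts of the difference itself, adjusted over all genes, responses of named members differed between cell types or between sorts. The EGCG response in Th17p minus that in Th17n, on the log2 scale, was 0.99 for Fbl, 0.76 for Gar1, -0.26 for Rrp1b and -0.26 for Utp14a in Total cells. In Div.1 cells it was 1.23 for Gar1, 1.14 for Fbl, -0.33 for Rrp12 and -0.31 for Polr1b. For DHEA the difference was 1.35 for Fbl and 0.97 for Gar1 in Total cells, and 1.26 for Gar1 and 1.18 for Fbl in Div.1 cells.

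The response in Div.1 minus that in Total cells was 0.32 for Rrn3 and 0.29 for Dkc1 with EGCG in Th17n. With DHEA it was 0.29 for Rrn3, 0.22 for Lyar and -1.21 for Tcof1 in Th17p, and 0.26 for Mybbp1a and 0.24 for Rrn3 in Th17n. Tcof1 varied widely between libraries, and its adjusted p was 0.0477.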

How the results depend on the processing

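No called change of a member reversed its direction under any alternative run, while some changes near 0 that were not called changed sign. Of 442 member calls over the 28 comparisons, 436 held with a pseudocount of 0.1, 402 with no filter, 381 after median-ratio rescaling, 385 with the compared groups alone and 409 without well columns 1 and 10. With well A4 in its labelled group 64 of 108 held, and over all fits that left out 1 library 5851 of 6345 did. Counts of called members stayed within 1.5 times in the 4 DHEA comparisons, with leave-one-out ranges of 32 to 33, 25 to 31, 34 to 36 and 29 to 32, and for the cell types, with 29 to 33 and 32 to 34.

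The counts that moved further are these, and the cause was not tested. After rescaling, EGCG in Th17n Div.1 went from 12 to 21 members, Div.1 against Total in Th17n from 17 to 7, DHEA by cell type from 3 to 6 in Total and 2 to 4 in Div.1, and DHEA by sort in Th17n from 4 to 0. EGCG against DHEA in Th17n Div.1 went from 25 to 16, and the solvents from 5 to 10 in Th17p Div.1 and 7 to 3 in Th17n Div.1. With the compared groups alone, EGCG in Th17n Total went from 16 to 10, EGCG by sort in Th17p from 0 to 1 and DHEA by sort in Th17n from 4 to 1, and the solvents went to 1 in Th17p Div.1, 3 in Th17n Total and 0 in Th17n Div.1. With well A4 in its labelled group, Div.1 against Total in Th17n fell to 6, EGCG by cell type in Div.1 from 9 to 3, EGCG by sort in Th17n from 6 to 0, EGCG against DHEA in Th17n Div.1 to 14 and the Th17n Div.1 solvents to 1. With no filter, DHEA by sort in Th17p went from 5 to 2 and the Th17p Div.1 solvents to 2. Without well columns 1 and 10, Div.1 against Total in Th17p went from 7 to 12, DHEA by cell type in Total to 5, EGCG by sort in Th17p to 2, and the solvents to 4 in Th17n Total and 1 in Th17n Div.1. Leaving out 1 library gave 2 to 6 members for DHEA by cell type in Total, 2 to 8 for EGCG by sort in Th17n, and 2 to 5 and 1 to 8 for DHEA by sort in Th17p and Th17n. For the solvents it gave 4 to 13, 1 to 4, 3 to 8 and 1 to 10.

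Replicate numbers are well columns, and the main fit left the samples unpaired. By the check used, libraries of the same column shared a small part of their deviations from the group means. Over 266 pairs of groups and columns the deviations of same-column libraries had a median correlation of 0.0714, from -0.0444 to 0.315, with 86 over 0.1, against -0.0062 for other columns, and in 414 of 532 comparisons of a library with another group it correlated best with its own column. With the replicate block all 411 member calls held. It raised the count from 7 to 11 for Div.1 against Total in Th17p, to 7 and 4 for DHEA by cell type in Total and Div.1, to 1 and 10 for EGCG by sort in Th17p and Th17n, and to 8 and 9 for DHEA by sort. The block could not be fitted to the solvent comparisons, where it is aliased. Without read counts, the precision of low genes such as Utp20 and Wdr12 cannot be set apart from the spread between libraries.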

Other observations

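Other genes of the pathway shared with Fbl and Gar1 both a wide spread between libraries of 1 group and a response that differed between the cell types. They were chosen after their values were seen, and the part of library preparation or transcript choice in them was not tested. Among 251 pathway genes with a mean of at least 10 TPM, the median within-group SD was 0.0858 on the log2 scale. Over all 6160 genes at that level it was 0.116. Srm, the spermidine synthase gene and a MYC target, had a mean of 479 TPM and an SD of 0.42. Its response in Th17p minus that in Th17n was 1.89 and 2.10 for EGCG in Total and Div.1, and 1.95 and 1.91 for DHEA. Utp18, a processome subunit, had an SD of 0.36 and differences of 1.90, 1.87, 1.79 and 1.83 in the same order. For Nop9, an RNA-binding 40S factor, the SD was 0.35 and the differences were 1.52, 1.74, 1.67 and 1.49. Rps2, a 40S ribosomal protein gene, had an SD of 0.39 and differences of 1.45, 1.71, 1.22 and 0.97. All 4 differences were called for each of these 4 genes.

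A wide spread did not always go with such a difference. Tcof1, with an SD of 0.47, and the ribosomal protein genes Rps29, Rpl38 and Rps28, with SDs of 0.43, 0.42 and 0.42, had none of the 4 called.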
